A study of Mus musculus with 10 samples.

Results

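Lysosome genes were taken as the genes of the deposited expression table whose KEGG annotation holds the lysosome pathway, which have an Ensembl identifier, and which are not also annotated to oxidative phosphorylation. This gave 169 of the 29583 genes in the table, of which 22036 have an Ensembl identifier. The pathway was written beside 182 genes, of which 11 were left out because they also carry oxidative phosphorylation and 2 because they are unnamed new loci. By their known function, 79 members were hydrolases with their activators and related enzymes, 29 were membrane proteins and 38 were trafficking genes. The other 23 carry the annotation by sequence match only and were kept apart. A lysosome is the acidic compartment in which a cell breaks down protein, sugar chains and lipid. Its enzymes are made in the secretory pathway, tagged with mannose phosphate, and carried in clathrin-coated vesicles by receptors and adaptor complexes, while membrane proteins shield the wall and let products out. In bone, osteoblasts break down part of the collagen they make in lysosomes, and osteoclasts release lysosomal enzymes to resorb bone.

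RNA was sequenced from MC3T3-E1, an osteoblast precursor line, labelled as newborn C57BL/6 mouse. For 5 or 10 days the cells received 0, 100, 150 or 200 µM β-ecdysterone, a sterol made by plants, with 1 library for each dose and day. The labels give n = 3 for the RNA extraction, and whether a library pools extractions is not given in the sources used here. The 8 libraries form a 0 µM group of 2 (1 per day) and a treated group of 6 (3 doses on each of 2 days). A further 2 libraries are labelled untreated, with neither dose nor time. Their titles give the line and the codes A-5 and B-4, by which they are called here. Since each dose was sequenced once per day, the doses serve as replicates of treatment, and p-values measure the spread between these libraries, which may be technical. The labels disagree on the source, with the line in the titles and bone marrow mesenchymal stem cells in the source field. Total counts were 48951468 at 0 µM, 29833654 at 100 µM, 57220036 at 150 µM and 29637936 at 200 µM on day 5. On day 10 they were 31300928, 27108562, 58218009 and 53666325 in the same order of dose. The untreated libraries held 28772087 (A-5) and 29789271 (B-4) counts. A floor of 3 counts stood for 0.0515 to 0.111 CPM (counts scaled by library total), and floors cover counting error only.

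Markers were read beside the label. All 11 osteoblast markers had counts, with Col1a2 (a collagen chain) the most abundant, and their summed level in FPKM (fragments scaled by gene length and library total) was 4896 and 5780.0 at 0 µM on days 5 and 10. The treated libraries ran from 4339 over a median of 5680.4 to 8313, and untreated A-5 and B-4 stood at 4589 and 3950.1. Of these markers 5 rose and 2 fell with treatment, at an adjusted p under 0.05 in a fit over all genes (edgeR, 6 against 2 libraries), in which 22.6% of all genes rose and 20.8% fell. Macrophage markers summed to 16.98 and 25.7 FPKM at 0 µM, 23.9 to 44.5 FPKM (median 32.4) in treated cells, and 17.8 and 18.4 FPKM in the untreated libraries. Lyz2 was the most abundant of them, Tyrobp was at 0 in all libraries, and Itgam, Aif1 and Cx3cr1 stayed under 10 counts in each. Of 6 macrophage markers tested among 12, 4 rose and 1 fell. Osteoclast markers summed to 19.2 and 17.7 FPKM at 0 µM and 11.2 to 16.2 FPKM (median 12.6) in treated cells, with 15.6 and 8.46 FPKM in A-5 and B-4. Nfatc1 was the most abundant, and the defining Tnfrsf11a, Calcr, Ocstamp and Dcstamp stayed under 10 counts in each library. Among 4 tested of the 8 osteoclast markers, 1 rose and 2 fell.

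Endothelial markers stood at 0.145 and 0.17 FPKM at 0 µM and 0.449 to 0.604 FPKM in treated cells, with 2 of 3 tested rising. Adipocyte markers summed to 2.03 and 1.81 FPKM at 0 µM and 1.75 to 4.40 FPKM in treated cells, with 1 of 4 tested rising. Chondrocyte markers summed to 18.2 and 20.1 FPKM against 17.6 to 30.0 FPKM, with Sox9 the most abundant and 1 of 3 tested rising. Muscle markers summed to 0.757 and 0.586 FPKM against 1.44 to 2.69 FPKM, with 2 of 3 tested rising. These rising counts stand beside 22.6% of all genes. In such bulk RNA, fewer cells of a type and less RNA per cell cannot be told apart. The part of any of these marker changes in the lysosome results was not tested.

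The untreated libraries had higher summed levels of lysosome genes than the 0 µM libraries. Untreated B-4 had the highest summed level of the 169 genes of all 10 libraries, 6769 FPKM, and A-5 had 5513 FPKM. The 0 µM libraries had 4503 FPKM on day 5 and 4529 FPKM on day 10. Lysosome genes took 2.05% of all counts in B-4, 1.65% in A-5, 1.37% and 1.35% at 0 µM, and 1.47% to 1.76% in treated cells. Across all genes, the Spearman correlation of the 0 µM libraries with each other was 0.958, that of B-4 with A-5 was 0.939, that of A-5 with the 0 µM libraries was 0.951 and 0.947, that of B-4 with them was 0.935 and 0.934, and treated libraries correlated with each other at 0.948 to 0.964. These are correlations across genes, which are not independent replicates. With no time on their labels, the untreated libraries were kept out of the main tests and used as an alternative control.

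In treated cells the summed level of the lysosome genes was higher than at 0 µM in all 6 libraries. The treated libraries ran from 4849.5 FPKM over a median of 5261 FPKM to 5962 FPKM (mean 5363, SD 434, n = 6). All lay above both 0 µM libraries, and those of day 10 lay above those of day 5. The ratio of the treated mean to the 0 µM mean was 1.19. A few genes carried much of this sum: the top 3 (Cd63, Psap and Laptm4a) held 30.0% and the top 20 held 70.5% of the mean level. Without the top 5 the treated libraries ran from 2968 to 3428 FPKM, still above both 0 µM libraries at 2724 and 2802 FPKM, with a ratio of 1.14. The sums went in different directions by role. Hydrolases summed to 2126 and 2129 FPKM at 0 µM and to 2256 to 2859 FPKM (median 2526) in treated cells. Membrane proteins summed to 1495 FPKM in both 0 µM libraries and to 1761 to 2389 FPKM (median 1946) in treated cells, a ratio of means of 1.34. Trafficking genes summed to 788 and 806 FPKM at 0 µM and to 691 to 762 FPKM (median 725) in treated cells, all below both. In untreated A-5 and B-4 the sums were 2729 and 3554 FPKM for hydrolases, 1923 and 2304 FPKM for membrane proteins, and 770.0 and 816 FPKM for trafficking genes.

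**Figure D1:**
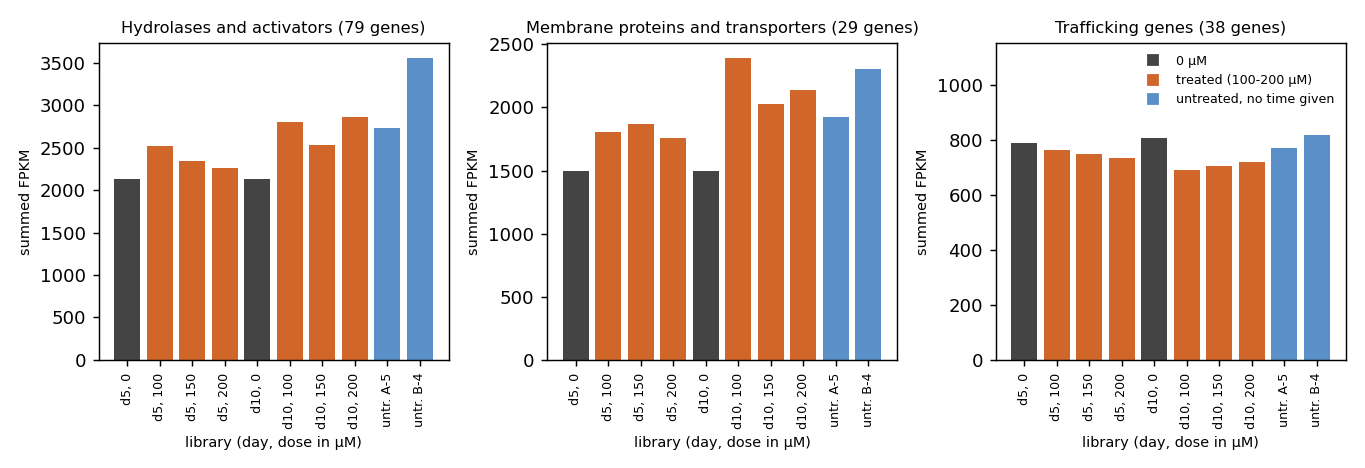
Summed FPKM of the hydrolases, membrane proteins and trafficking genes in each of the 10 libraries. The hydrolase and membrane sums of the 6 treated libraries lie above both 0 µM libraries, the trafficking sums lie below both, and untreated B-4 has the highest hydrolase sum (3554 FPKM).

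The 17 cathepsins, the main lysosomal proteases, summed to 656 and 644 FPKM at 0 µM. In treated cells they summed to 787 to 1035 FPKM (median 886), a ratio of means of 1.40. No treated library overlapped the 0 µM libraries, and untreated A-5 (985 FPKM) lay within the treated range while B-4 (1318 FPKM) lay above it. Much of the difference lay in Ctsb and Ctsk, while Ctsd overlapped 0 µM and Ctsl was lower in treated cells. Per length, the most abundant lysosome genes by mean level over the 8 dosed libraries were Cd63 (633 FPKM), Psap (566 FPKM), Laptm4a (345 FPKM), Lamp1 (302 FPKM), Ctsd (246 FPKM) and Ctsb (243 FPKM). By role, hydrolases held 47.5%, membrane proteins 36.3%, trafficking genes 14.4% and sequence matches 1.74% of the summed mean level. At the other end, 15 of the 169 genes had no count in any library, and 129 passed the filter on low counts and were tested against 0 µM. The 40 not tested include 25 with counts, at most 15 in any library. Among them were Acp5 (tartrate-resistant acid phosphatase, an osteoclast marker), with at most 4 counts, and the immune cathepsin Ctss, with at most 6 counts.

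Treatment was compared with 0 µM in a fit across all genes with the day as a term, to ask which lysosome genes moved with β-ecdysterone. At an adjusted p under 0.05 (edgeR quasi-likelihood, Benjamini-Hochberg over all genes tested), 41 of the 129 lysosome genes rose and 17 fell. The 41 are 31.8% of those tested, beside 22.6% rising among all 16794 genes tested and 20.2% among the 14053 with an Ensembl identifier. The 17 are 13.2%, beside 20.8% falling among all genes and 23.6% among Ensembl genes. With a log2 fold change beyond 1 as well, 16 rose (12.4%, beside 13.4% and 10.1%), a share near the background. By that rule 3 fell (2.33%, beside 5.98% and 6.31%), namely Sort1, Ap3b2 and Catip. At an unadjusted p under 0.05 there were 45 higher and 26 lower, beside 4541 and 4104 among all genes tested. DESeq2 called 43 higher and 19 lower at its adjusted p, beside 24.1% and 21.3% of all genes. Of the 41, 40 were higher in 6 of 6 treated libraries than at 0 µM of the same day, and Sorcs3 was higher in 5. Of the 17, 16 were lower in 6 of 6, and Tinagl1 was the exception. The median log2 fold change of the 129 was 0.11 (quartiles -0.20 and 0.54), beside 0.05 over all genes tested and -0.01 over Ensembl genes.

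The split of 41 to 17 moved with the scaling and the test. It was 35 to 25 with library totals in place of TMM factors (beside 20.1% and 23.3% of all genes), 33 to 21 with limma on log2(FPKM + 1) (beside 17% and 22.2%) and 35 to 22 with limma on log2(FPKM + 0.1) (beside 19.4% and 22.2%). It also moved with the choice of control. With the untreated libraries in place of 0 µM, 8 of 126 genes rose and 10 fell (beside 9.9% and 10.1% of all genes), the median was -0.04, and only 11 of the 58 calls were shared in the same direction. With the untreated libraries added to 0 µM, 20 of 124 rose, 10 fell (beside 13.8% and 13.2%), the median was 0.02 and 26 of the 58 calls were shared. Single 0 µM libraries decided counts too. Without 0 µM on day 10, 16 of 134 rose (8 with log2 beyond 1), 11 fell (beside 11.5% and 10.2%, so the rising share was near that of all genes), the median was 0.07 and 24 of the 58 calls were shared. Without 0 µM on day 5 the median was 0.21 and 43 of the 58 calls were shared. In the 4 libraries below 40000000 counts among those dosed (3 treated, 1 at 0 µM), 6 of 126 rose and 3 fell (Galns, Slc11a2 and Sort1), beside 7.51% and 6.84% of all genes. In the 4 above it 22 of 132 rose and 10 fell, beside 11.2% and 10.1%.

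**Figure D2:**
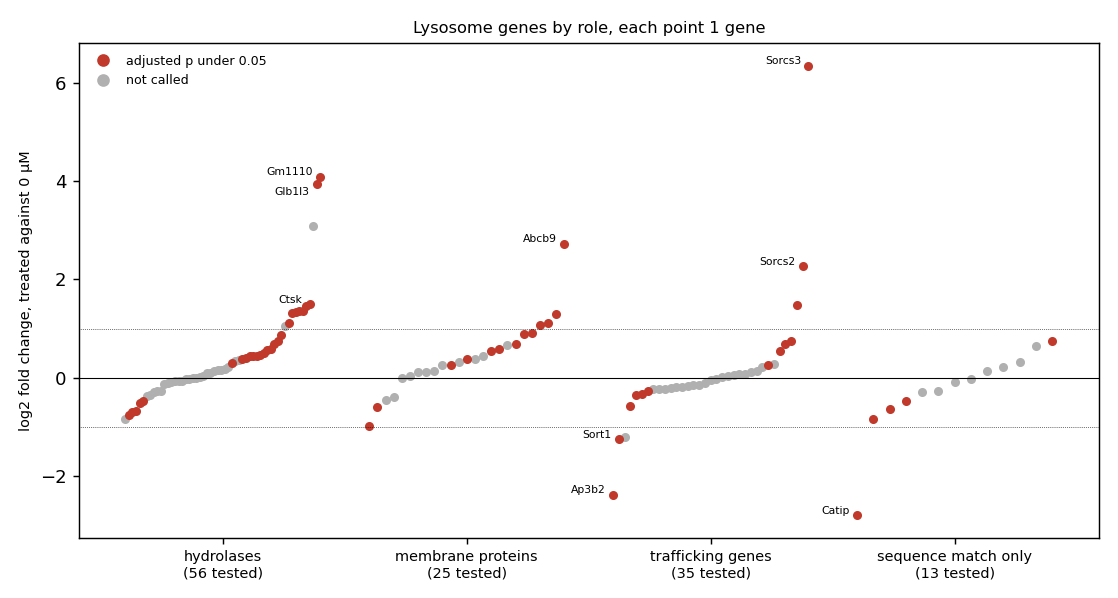
Log2 fold change of each tested lysosome gene, treated against 0 µM, by role (edgeR, 6 against 2 libraries), with genes past an adjusted p of 0.05 coloured. Hydrolases and membrane proteins have more genes called above 0 than below it, and trafficking genes were called on both sides. Scaled by library totals or read as FPKM, the split over all roles moved from 41 and 17 to between 33 and 35 above and 21 to 25 below.

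By role, 22 of 56 hydrolases tested rose (39.3%) and 5 fell (8.93%), beside 22.6% and 20.8% of all genes, with a median log2 fold change of 0.17. Of the 25 membrane proteins tested, 11 rose and 2 fell, with a median of 0.38. Trafficking genes were split and near the shares of all genes, with 7 of 35 rising (20%), 6 falling (17.1%) and a median of -0.05. Among 13 sequence matches tested, 1 rose (Tmem143) and 4 fell (Catip, Tinagl1, Disp1 and Tmppe), named here after their values were seen. Within the hydrolases, 5 of 12 proteases rose, 8 of 17 glycosidases rose and 3 fell, and 2 of 7 sulfatases (28.6%, near the share of all genes) rose and 1 fell. Of the 8 lipases, nucleases, phosphatases and thioesterases 2 rose and 1 fell, of 4 activators 2 rose, and of 8 related enzymes 3 rose. Scaling, control and single libraries moved these counts. With library totals, 8 hydrolases and 10 trafficking genes fell, beside 23.3% of all genes. In both limma fits 8 hydrolases fell, beside 22.2%. With the untreated libraries in place of 0 µM, 2 hydrolases, 2 membrane proteins and 2 trafficking genes rose, beside 9.9% of all genes. With them added 11, 4 and 4 did, beside 13.8%. Without 0 µM on day 10, the risers were 9 hydrolases, 2 membrane proteins, 4 trafficking genes and 1 sequence match, and the fallers were 6, 2, 2 and 1 in the same order. Trafficking risers were 3 without 0 µM on day 5, and 4 without 100 µM or without 200 µM on day 10. The falling sequence matches were 2 without 0 µM on day 5 and 2 without 150 µM on day 5, 200 µM on day 5 or 200 µM on day 10.

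Among proteases, Ctsk (chr3:95499256-95509362 in the GENCODE M21 annotation) encodes cathepsin K, a protease that cuts collagen and for which osteoclasts are known. It stood at 41.8 and 43.0 FPKM at 0 µM on days 5 and 10. At 100, 150 and 200 µM it stood at 83.0, 97.0 and 86.2 FPKM on day 5 and at 170.5, 137 and 161 FPKM on day 10. All 6 treated libraries lay above both 0 µM libraries and above the untreated ones (67.3 and 66.5 FPKM), and day 10 lay above day 5 at each dose. Ctsk rose by 1.49 on the log2 scale (SE 0.19, adjusted p 0.000223 by edgeR, 6 of 6 libraries). Ctsb (chr14:63122462-63145923), the cysteine protease cathepsin B, stood at 125 and 113 FPKM at 0 µM. On day 5 it had 304, 286 and 277 FPKM at the 3 rising doses, and on day 10 it had 316, 229 and 294 FPKM. The treated libraries did not overlap the 0 µM libraries, while untreated A-5 (180.2 FPKM) lay between them and B-4 (389 FPKM) above all. Its log2 fold change was 1.31 (SE 0.15, adjusted p 0.000122, 6 of 6). With the untreated libraries in place of 0 µM, neither call held: the log2 fold change was 0.91 for Ctsk and 0.01 for Ctsb, and for Ctsb 0.52 with them added.

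Napsa, an aspartic protease best known from lung and kidney, stood at 0.571 and 0.511 FPKM at 0 µM. Treated libraries ran from 0.803 over a median of 1.41 to 2.81 FPKM, all above both 0 µM libraries. Napsa rose by 1.46 on the log2 scale (SE 0.36, adjusted p 0.00899, 6 of 6). Without 0 µM on day 10 its call was lost (0.86), as it was with the untreated libraries in place of 0 µM (0.64) or added (1.07), and without 0 µM on day 5 the fold was 2.19. Ctsd, the main aspartic protease of lysosomes, stood at 225 and 220.3 FPKM at 0 µM and at 205 to 287 FPKM (median 257) in treated cells. The groups overlapped on day 5, and both untreated libraries (382 and 522 FPKM) lay above all others. Its log2 fold change of 0.23 did not pass (adjusted p 0.164), nor did 0.45 without 0 µM on day 5 or 0.01 without 0 µM on day 10, while against the untreated libraries alone it was called lower (-0.81). Ctsl, the cysteine protease cathepsin L, stood at 72.2 and 72.1 FPKM at 0 µM and at 49.98 to 69.4 FPKM (median 55.1) in treated cells. All 6 treated libraries lay below both 0 µM libraries, which lay below the untreated ones (96.1 and 98.0 FPKM). The difference of -0.27 did not pass (adjusted p 0.0627), though it did in 6 of 22 alternatives, among them those with the untreated libraries in place of 0 µM (-0.68) or added (-0.48), with library totals (-0.32) and without 0 µM on day 10 (-0.49). It stood at -0.04 without 0 µM on day 5. In the annotation, Ctsl shares 26.9% of its exon bases with Gm47123 on the other strand, Napsa 18.9% with Gm15396 and Ctsb 12.8% with Fdft1, and whether counting was stranded is not given in the sources used here. Ctsd shares 34.4% with Gm49369 on its own strand, so its counts are uncertain either way.

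Glycosidases, which remove sugars from glycolipids and sugar chains, went both ways. Hexa, an enzyme subunit that acts on gangliosides, stood at 55.9 and 57.0 FPKM at 0 µM and at 67.2 to 92.6 FPKM (median 75.3) in treated cells. All treated libraries lay above 0 µM but below untreated A-5 and B-4 (100.1 and 155 FPKM). Hexa rose by 0.51 (log2, SE 0.11, adjusted p 0.0038, 6 of 6). Without 0 µM on day 10, Hexa had a log2 fold change of 0.35 and lost its call. With the untreated libraries in place of 0 µM, Hexa was called in the opposite direction, lower in treated cells (-0.68), and with them added it was not called (-0.19). Hexa shares 12.8% of its exon bases with Tmem202 on the other strand.

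Gla, α-galactosidase A, which clears globotriaosylceramide, stood at 12.6 and 12.7 FPKM at 0 µM. Treated libraries ran from 6.47 over a median of 7.77 to 8.36 FPKM, all below both 0 µM libraries and below A-5 (16.4 FPKM) and B-4 (9.01 FPKM). Gla fell by 0.67 on the log2 scale (SE 0.10, adjusted p 0.000609, 6 of 6). Galc, which cleaves galactosylceramide, stood at 7.34 and 7.63 FPKM at 0 µM and at 3.64 to 5.25 FPKM (median 4.23) in treated cells. No treated library reached the 0 µM levels, and untreated B-4 (4.99 FPKM) lay among the treated ones. Galc fell by 0.75 (SE 0.14, adjusted p 0.00242, 6 of 6). Naglu, which trims heparan sulfate, stood at 18.8 and 22.2 FPKM at 0 µM and at 8.88 to 14.2 FPKM (median 12.5) in treated cells. The groups did not overlap, and both untreated libraries (13.9 and 13.3 FPKM) lay within the treated range. Naglu fell by 0.70 (SE 0.15, adjusted p 0.00483, 6 of 6). With the untreated libraries in place of 0 µM, Galc (-0.65) and Naglu (-0.12) lost their calls, Naglu also with them added (-0.43), and only in libraries below 40000000 counts did Gla lose its call.

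Pla2g15 (chr8:106150399-106164715), the lysosomal phospholipase A2, stood at 7.52 and 7.92 FPKM at 0 µM. At the 3 rising doses it had 19.2, 14.9 and 19.4 FPKM on day 5 and 19.1, 20.4 and 22.9 FPKM on day 10. All 6 treated libraries lay above both 0 µM libraries, A-5 (6.60 FPKM) and B-4 (14.0 FPKM). Pla2g15 rose by 1.37 on the log2 scale (SE 0.14, adjusted p 5.89e-05, 6 of 6), and lost its call only with the untreated libraries in place of 0 µM (0.92). Lipa, lysosomal acid lipase, stood at 23.9 and 21.1 FPKM at 0 µM and at 18.8 to 23.1 FPKM (median 20.8) in treated cells, an overlap (log2 -0.05, adjusted p 0.731), and its value turned to 0.14 without 0 µM on day 5. The sulfatase Galns, which acts on keratan sulfate, stood at 10.7 and 12.0 FPKM at 0 µM and at 7.07 to 8.50 FPKM (median 7.66) in treated cells. It fell by 0.52 (SE 0.09, adjusted p 0.00141, 6 of 6), with no overlap, and untreated B-4 (4.92 FPKM) lay below every treated value. Its call was lost with the untreated libraries in place of 0 µM (0.27) or added (-0.17). Outside the naming rule and chosen after their values were seen, the sulfatases Arsg (1.35) and Ids (0.69) rose.

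Gm2a (chr11:55098115-55113029) encodes the activator that presents a ganglioside to the enzyme that cleaves it. It stood at 3.97 and 4.50 FPKM at 0 µM. At the 3 rising doses it had 6.45, 6.79 and 6.46 FPKM on day 5 and 14.0, 19.3 and 21.8 FPKM on day 10. Every treated library lay above both 0 µM and both untreated libraries (4.37 and 4.56 FPKM), and every day 10 library lay above every day 5 one. Gm2a rose by 1.35 on the log2 scale (SE 0.28, adjusted p 0.00331, 6 of 6). The value was 2.11 without 0 µM on day 5 and 0.73 without 0 µM on day 10, and the call was lost with the untreated libraries in place of 0 µM (1.52). Psap, the precursor of the saposin activators, stood at 536 and 517 FPKM at 0 µM and at 504 to 657 FPKM (median 585) in treated cells. The groups overlapped, untreated B-4 was highest (1056 FPKM) and A-5 (643 FPKM) lay within the treated range. Its log2 fold change of 0.18 did not pass (adjusted p 0.228), and was -0.53 with the untreated libraries in place of 0 µM.

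Structural membrane proteins line the lysosome's wall and shield it from the enzymes inside. Laptm4a, a small protein spanning the late endosome and lysosome membrane, stood at 219 and 204 FPKM at 0 µM and at 317 to 445 FPKM (median 405) in treated cells. All 6 treated libraries lay above 0 µM, and both untreated libraries (331 and 391 FPKM) lay within the treated range. Laptm4a rose by 0.91 (log2, SE 0.14, adjusted p 0.000661, 6 of 6), and its call was lost with the untreated libraries in place of 0 µM (0.14) or added (0.49). Its relative Laptm4b also rose (0.89), as did Tmem123 (0.54), both outside the naming rule and chosen after their values were seen. Litaf, a late endosome protein, stood at 16.2 FPKM in both 0 µM libraries and at 8.59 to 12.8 FPKM (median 10.3) in treated cells. The groups did not overlap, and A-5 (10.6 FPKM) and B-4 (6.71 FPKM) also lay below 0 µM. Litaf fell by 0.60 (SE 0.13, adjusted p 0.00445, 6 of 6), and lost its call without 0 µM on day 10 (-0.53) and with the untreated libraries in place of 0 µM (0.33) or added (-0.20).

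Other wall proteins did not pass the test. Lamp2, which also serves chaperone-mediated autophagy, stood at 103 and 133 FPKM at 0 µM and at 145 to 237 FPKM (median 178) in treated cells. All 6 treated libraries lay above both 0 µM libraries, yet the log2 fold change of 0.67 missed the limit (SE 0.25, adjusted p 0.052). It passed in 11 of 22 alternatives, among them DESeq2 (0.68) and the fits without 150 µM on day 5 (0.74), without 200 µM on day 10 (0.77) and without 150 µM on day 10 (0.76). It stood at 0.42 without 0 µM on day 5 and at 0.95 without 0 µM on day 10, and passed in neither. Cd63, a tetraspanin, stood at 537 and 506 FPKM at 0 µM and at 533 to 827 FPKM (median 669) in treated cells, with overlap through 100 µM on day 5. Its 0.38 missed the limit (adjusted p 0.054), and passed in 7 of 22, among them DESeq2 (0.39) and the fits without 0 µM on day 5 (0.69) and without 100 µM on day 5 (0.42). It stood at 0.10 without 0 µM on day 10. Lamp1, the other main wall glycoprotein, stood at 262 and 280.3 FPKM at 0 µM, at 270.0 to 371 FPKM (median 305) in treated cells and at 467 and 608 FPKM in A-5 and B-4 (log2 0.25, adjusted p 0.128), and against A-5 and B-4 alone it was called lower (-0.76). Scarb2, a membrane protein and sorting receptor of lysosomes, stood at 16.997 and 16.4 FPKM at 0 µM and at 14.7 to 22.7 FPKM in treated cells (0.15, adjusted p 0.368), and at -0.08 without 0 µM on day 10. Cd68, a glycoprotein abundant in macrophages, was low throughout, 1.14 and 1.12 FPKM at 0 µM and 0.681 to 0.946 FPKM in treated cells (-0.46, adjusted p 0.136).

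Transporters and channels, with the lumen proteins that work beside them, held 8 risers and 1 faller among 14 tested, beside 22.6% and 20.8% of all genes. Over all membrane proteins the risers went from 11 to 2 when A-5 and B-4 stood in for 0 µM, while those among all genes went from 22.6% to 9.9%. Without 0 µM on day 10, which leaves 1 library at 0 µM, calls also became fewer, both for membrane proteins and for all genes. Mfsd8, a membrane transporter lost in a childhood storage disease, stood at 3.25 and 3.42 FPKM at 0 µM and at 6.97 to 8.62 FPKM (median 7.92) in treated cells. All 6 treated libraries lay above both 0 µM and both untreated libraries (4.25 and 6.38 FPKM). Mfsd8 rose by 1.29 (log2, SE 0.11, adjusted p 1.78e-05, 6 of 6) and kept its call in all 22 alternatives, at its lowest with the untreated libraries in place of 0 µM (0.59). Npc1, which moves cholesterol out of lysosomes, stood at 12.7 and 12.1 FPKM at 0 µM and at 20.05 to 41.5 FPKM (median 22.4) in treated cells. The top value was 100 µM on day 10, with the next at 26.9 FPKM, and no treated library overlapped 0 µM. Npc1 rose by 1.07 (SE 0.26, adjusted p 0.00841, 6 of 6). Its soluble partner Npc2 stood at 30.4 and 33.1 FPKM at 0 µM and at 34.2 to 45.5 FPKM (median 39.97) in treated cells, a rise of 0.38 (SE 0.12, adjusted p 0.027, 6 of 6). Npc1 lost its call without 0 µM on day 10 (0.77), and Npc2 lost it without either 0 µM library (0.43 without day 5, 0.31 without day 10). Both lost it with the untreated libraries in place of 0 µM (0.54 for Npc1, -0.17 for Npc2), and Npc2 also with them added (0.09).

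Ctns, which exports cystine, stood at 7.90 and 7.68 FPKM at 0 µM and at 12.2 to 25.5 FPKM (median 14.7) in treated cells, with the top value again at 100 µM on day 10. It rose by 1.11 (log2, SE 0.24, adjusted p 0.0044, 6 of 6), and lost its call without 0 µM on day 10 (0.81) and with the untreated libraries in place of 0 µM (0.42) or added (0.75). Slc11a2, an iron transporter, stood at 32.4 and 31.3 FPKM at 0 µM. Treated libraries ran from 13.3 over a median of 16.7 to 20.2 FPKM. All lay below 0 µM, while untreated A-5 (33.2 FPKM) lay above 0 µM and B-4 (16.5 FPKM) within the treated range. Slc11a2 fell by 0.97 (SE 0.13, adjusted p 0.000269, 6 of 6), and lost its call with the untreated libraries in place of 0 µM (-0.51). Mcoln1, the lysosomal calcium channel, stood at 18.4 and 19.2 FPKM at 0 µM and at 15.1 to 19.3 FPKM (median 17.8) in treated cells, an overlap (log2 -0.01, adjusted p 0.968). Its value was 0.03 without 150 µM on day 5 and 0.04 without 150 µM on day 10.

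**Figure D3:**
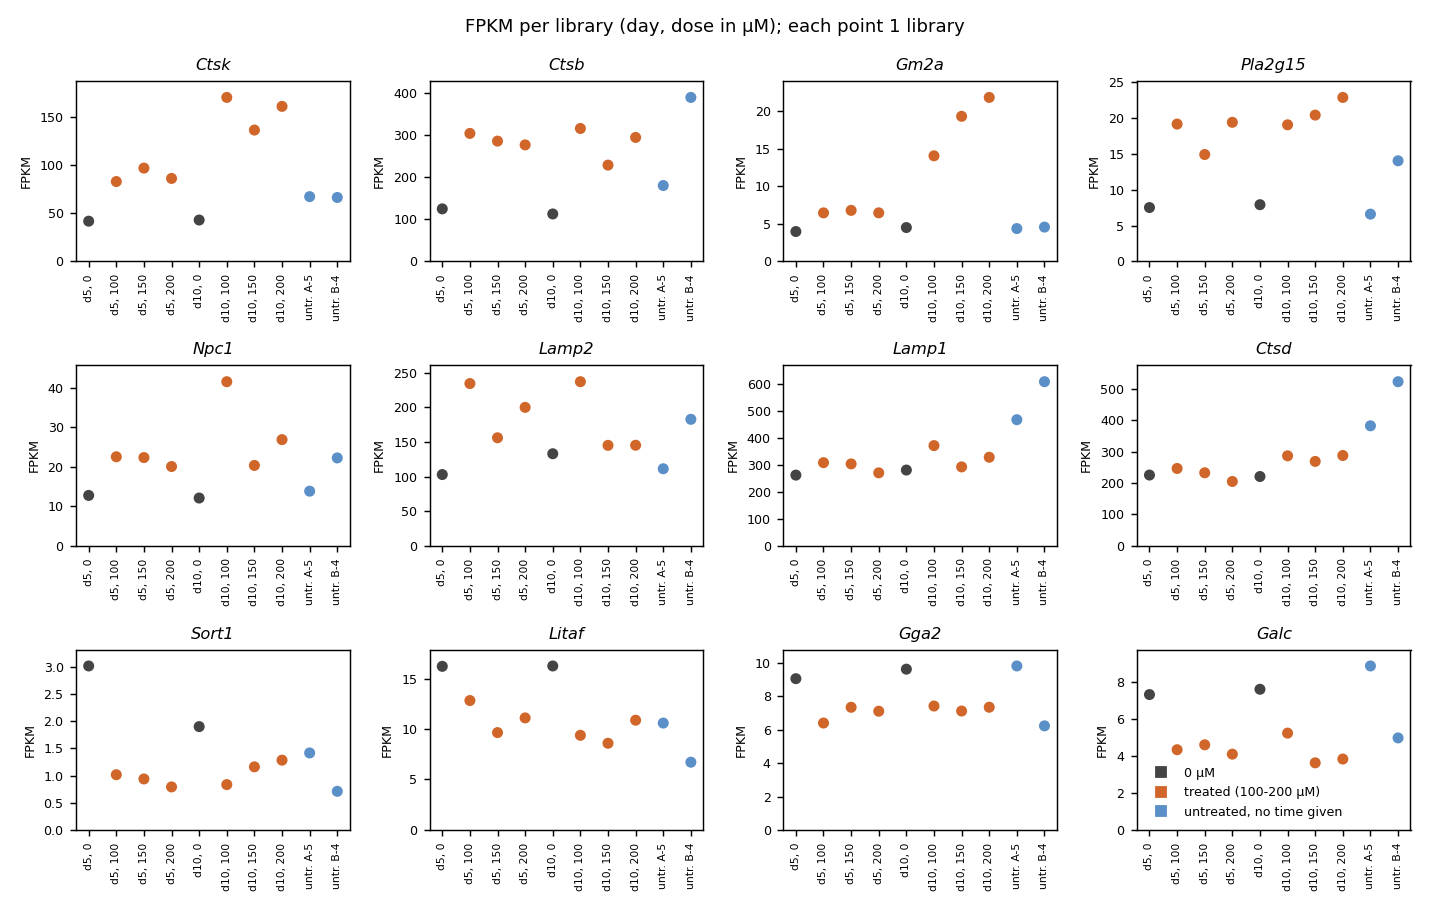
FPKM of single lysosome genes in each library (linear axis from 0, each point 1 library, coloured by group) for Ctsk, Ctsb, Gm2a, Pla2g15, Npc1, Lamp2, Lamp1, Ctsd, Sort1, Litaf, Gga2 and Galc. The 6 treated libraries lie above both 0 µM libraries for Ctsk, Ctsb, Gm2a, Pla2g15, Npc1 and Lamp2, overlap them for Lamp1 and Ctsd, and lie below both for Sort1, Litaf, Gga2 and Galc.

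Trafficking genes move enzymes from the Golgi to the lysosome. Gnptg, a subunit of the enzyme that starts the mannose phosphate tag, stood at 16.4 and 15.5 FPKM at 0 µM and at 24.9 to 31.2 FPKM (median 27.03) in treated cells. All treated libraries lay above 0 µM, and untreated B-4 was highest at 43.9 FPKM. Gnptg rose by 0.75 (log2, SE 0.11, adjusted p 0.000556, 6 of 6). It shares 49.5% of its exon bases with Unkl on the other strand, and lost its call with the untreated libraries in place of 0 µM (-0.23) or added (0.19). The receptors that bind the tag did not pass. M6pr stood at 54.8 and 58.2 FPKM at 0 µM and at 52.4 to 62.6 FPKM (median 56.2) in treated cells (0.05, adjusted p 0.659), and at -0.04 without 0 µM on day 5. Igf2r stood at 42.0 and 37.0 FPKM at 0 µM and at 25.9 to 43.6 FPKM (median 34.2) in treated cells (-0.23, adjusted p 0.266), and at 0.10 without 0 µM on day 5. In both, the treated and 0 µM libraries overlapped.

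Sorting receptors of the sortilin family split. Sort1, sortilin itself, stood at 3.02 and 1.90 FPKM at 0 µM and at 0.792 to 1.29 FPKM (median 0.978) in treated cells. Every treated library lay below both 0 µM libraries, and A-5 (1.42 FPKM) and B-4 (0.711 FPKM) lay just above and just below the treated range. Sort1 fell by 1.25 (log2, SE 0.21, adjusted p 0.00125, 6 of 6), by 0.71 without 0 µM on day 5, and lost its call with the untreated libraries in place of 0 µM (-0.04) or added (-0.75). Sorcs2, a relative best known from neurons, stood at 0.617 and 0.642 FPKM at 0 µM. At the 3 rising doses it had 0.957, 2.01 and 2.41 FPKM on day 5 and 4.48, 6.35 and 6.04 FPKM on day 10. All lay above 0 µM, which lay above the untreated libraries (0.177 and 0.268 FPKM). Sorcs2 rose by 2.27 (SE 0.43, adjusted p 0.00226, 6 of 6), 3.202 without 0 µM on day 5 and 1.52 without 0 µM on day 10. Sorl1 was near the limit of detection, 0.025 and 0.046 FPKM at 0 µM and 0.0724 to 0.131 FPKM in treated cells. It rose by 1.48 (SE 0.38, adjusted p 0.0106, 6 of 6), lost its call without 0 µM on day 5 (0.82) and with the untreated libraries in place (1.37), and stood at 2.19 without 0 µM on day 10. Neither limma fit called Sorl1, with 0.09 on log2(FPKM + 1) and 0.56 on log2(FPKM + 0.1).

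Adaptor complexes select cargo for coated vesicles. Ap1s1, a small subunit of AP-1 at the Golgi, stood at 67.4 and 68.1 FPKM at 0 µM and at 38.9 to 50.04 FPKM (median 43.8) in treated cells, with both untreated libraries (61.0 and 60.7 FPKM) in between. It fell by 0.57 (log2, SE 0.08, adjusted p 0.000414, 6 of 6). Ap1s2, the alternative form of that subunit, stood at 10.7 and 10.2 FPKM at 0 µM and at 15.1 to 18.5 FPKM (median 16.6) in treated cells. It rose by 0.70 (SE 0.10, adjusted p 0.000421, 6 of 6), so the 2 forms of the subunit went in opposite directions while Ap1s1 stayed the more abundant in FPKM in each library. Ap3b1, a large subunit of AP-3, stood at 16.6 and 16.4 FPKM at 0 µM and at 11.2 to 14.1 FPKM (median 12.7) in treated cells, a fall of -0.32 (SE 0.08, adjusted p 0.00783, 6 of 6). Gga2, a Golgi adaptor for the tag receptors, stood at 9.07 and 9.64 FPKM at 0 µM and at 6.41 to 7.43 FPKM (median 7.24) in treated cells, a fall of -0.34 (SE 0.08, adjusted p 0.0073, 6 of 6). None of these treated ranges overlapped 0 µM. Ap3b1 lost its call without 0 µM on day 5 (-0.34) or day 10 (-0.31), and so did Gga2 (-0.31 and -0.38). Both also lost it with the untreated libraries in place of 0 µM (-0.05 and -0.13) or added (-0.18 and -0.23). Ap1s2 lost its call only with the untreated libraries in place of 0 µM (0.21).

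Clathrin forms the coat itself. Clta, a light chain, stood at 140.2 and 149 FPKM at 0 µM and at 104 to 141 FPKM (median 118) in treated cells (-0.23, adjusted p 0.0801), and passed in 3 of 22 alternatives, among them without 100 µM on day 5 (-0.26), but not without 0 µM on day 5 (-0.34) or day 10 (-0.11). Cltc, the heavy chain, stood at 106 and 108 FPKM at 0 µM and at 87.9 to 99.4 FPKM (median 91.1) in treated cells, all below both (-0.17, adjusted p 0.168). Some of the largest fold changes rested on few counts, and their genes were chosen for naming after their values were seen. Gm1110 had 0 and 4 counts at 0 µM and 19 to 76 in treated libraries. Glb1l3 had 2 and 0 counts against 4 to 35, and Abcb9 had 3 and 0 counts against 4 to 22. Sorcs3 had 0 counts in both 0 µM libraries and 0 to 28 in treated ones, at least 7.11-fold higher against 3 counts over the 0 µM libraries together. With Sorcs3 at this bound the median of the members was again 0.11. In the other direction, Ap3b2 had 101 and 29 counts at 0 µM and 0 to 28 in treated libraries, and Catip had 21 and 13 against 0 to 7.

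Whether the effect of treatment differed between the days was asked with an interaction term, on 131 lysosome genes. By edgeR 0 were called higher and 0 lower on day 10, beside 0% and 0.0112% of all 17799 genes tested and 0% and 0.0137% of 14568 Ensembl genes. At an unadjusted p under 0.05, 20 were higher and 3 lower (Gm1110, Tinagl1 and Sorl1, named after their values were seen), beside 853 and 611 among all genes tested. DESeq2 called 2 higher, Gm2a (1.37) and Ctsh (1.37), and 0 lower, beside 0.298% and 0.14% of all genes. The fitted difference was 1.38 for Gm2a (SE 0.27, adjusted p 0.312 by edgeR) and 0.86 for Ctsk (adjusted p 0.415). Without 100 µM on day 10, edgeR called Gm2a (1.53). The median difference was 0.13, beside 0.02 over all genes tested, and 0.19 without 100 µM on day 5. Each day has a single 0 µM library, so the difference between days rests on those libraries.

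In single libraries, the median log2 ratio of the 129 tested genes to 0 µM of the same day was 0.12, 0.03 and 0.05 at 100, 150 and 200 µM on day 5. On day 10 it was 0.19, 0.14 and 0.18 in the same order. Over all genes tested, these medians lay between 0.01 and 0.05. For hydrolases alone they were 0.38, 0.26 and 0.38 on day 10, and for membrane proteins 0.55, 0.33 and 0.44. On day 5 hydrolases stood at 0.14, 0.02 and 0.04, the last 2 near all genes, and membrane proteins at 0.27, 0.19 and 0.29. The median of the membrane proteins lay above that of all genes in each of the 6 libraries, while that of the trafficking genes lay between -0.11 and 0.03.

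Among treated cells alone, day 10 was compared with day 5 (3 against 3 libraries, with the doses as replicates and no term for dose). Of 126 lysosome genes tested, 11 rose and 0 fell by edgeR. The 11 are 8.73%, beside 2.08% rising and 0.718% falling among all 16020 genes tested, and 2.19% and 0.719% among 13622 Ensembl genes. With a log2 fold change beyond 1, 3 rose, namely Gm2a, Sorcs2 and Napsa, and 0 fell, beside 0.905% and 0.144% of all genes and 0.881% and 0.117% of Ensembl genes. At an unadjusted p under 0.05 the counts were 40 higher and 4 lower, beside 1575 and 1355 among all genes tested, and DESeq2 called 24 and 0, beside 4.31% and 3.18% of all genes. The median log2 fold change was 0.16, beside 0.00 over all genes. Scaled by library totals alone, the all-gene median moved by -0.13, the split of all genes moved from 333 and 115 to 233 and 513, and that of lysosome genes from 11 and 0 to 8 and 1 (Gga1). Single libraries decided the count: without 200 µM on day 5, or without 200 µM on day 10, 1 gene was called (Gm2a, 1.56 and 1.45), while over all genes the calls also shrank, to 18 and 1 and to 27 and 3. Without 150 µM on day 5, the risers among 124 tested included 4 membrane proteins and 2 trafficking genes, and Gga1 and Gm49392 fell. Of all genes 2.25% rose and 1.02% fell there. Without 150 µM on day 10, the risers among 125 tested included 3 membrane proteins, beside 2.02% of all genes rising. In each of these fits 8 of the 11 calls were shared. The 0 µM libraries have no replicate within a day, so the passage of time without β-ecdysterone was not tested.

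Gm2a had the smallest adjusted p of these, with a log2 difference of 1.57 (SE 0.13, adjusted p 0.00185), each day 10 library above each day 5 library. Ctsk rose by 0.90 (SE 0.11, adjusted p 0.0113) and Sorcs2 by 1.74 (SE 0.27, adjusted p 0.0151), again with no overlap between days. Napsa rose by 1.17 (SE 0.25, adjusted p 0.0445), and lost its call without 100 µM on day 5 (1.21), 150 µM on day 5 (1.30), 200 µM on day 5 (1.04), 150 µM on day 10 (0.98) or 200 µM on day 10 (1.19). Sorcs2 lost it without 200 µM on day 5 (2.001) or day 10 (1.71). Also called were Abca2 (0.73), a lipid transporter, Neu1 (0.68), a sialidase, Ctsh (0.91), an aminopeptidase cathepsin, Fuca1 (0.49) and Fuca2 (0.56), both fucosidases, and Ppt1 (0.39), a thioesterase that removes palmitate from proteins. These were chosen for naming after their values were seen. Abca2 stood at 15.7 and 14.9 FPKM at 0 µM, at 9.25, 9.11 and 9.27 FPKM at the 3 rising doses on day 5 and at 14.2, 12.9 and 16.1 FPKM on day 10, with day 10 overlapping the 0 µM levels.

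A dose trend within treated cells was asked over 100, 150 and 200 µM with the day as a term. Of 128 lysosome genes tested, edgeR called 0 higher and 0 lower, beside 0.006% and 0% of all 16664 genes and 0.00715% and 0% of 13978 Ensembl genes. At an unadjusted p under 0.05 there were 2 higher, Sorcs2 (0.77) and Entpd4 (0.48), and 2 lower, Tinagl1 (-0.56) and Asah1 (-0.33), named after their values were seen. Among all genes tested 225 were higher and 166 lower at that limit, so 2 and 2 are near the background. DESeq2 called 0 in both directions. The median was -0.07, beside 0.01 over all genes, and ran from -0.12 without 200 µM on day 10 to -0.02 without 100 µM on day 5.

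Other genes that act at the lysosome were read from fixed lists. Of 25 proton pump (V-ATPase) genes, which acidify the lumen, 22 were tested, 6 rose (27.3%) and 3 fell (13.6%) against 0 µM, beside 22.6% and 20.8% of all genes, with a median of 0.16. The pump's most abundant gene, Atp6v0c, stood at 178 and 174 FPKM at 0 µM and at 139 to 166 FPKM in treated cells. Tcirg1, the pump subunit used by osteoclasts, stood at 55.6 and 61.9 FPKM at 0 µM, at 26.3 to 27.5 FPKM in treated cells, and at 60.1 and 31.4 FPKM in A-5 and B-4. It fell by 1.08 (log2, SE 0.07, adjusted p 5.46e-06, 6 of 6). Of 21 genes of the TFEB family and the mTORC1 machinery, which set lysosome gene transcription by nutrient supply, 19 were tested, 2 rose and 6 fell (31.6%), with a median of -0.09. Tfeb stood at 6.01 and 5.85 FPKM at 0 µM and at 3.42 to 4.86 FPKM in treated cells, with no overlap, and fell by 0.52 (adjusted p 0.0117). Its relative Tfe3 also fell (-0.54, adjusted p 0.00304), while Mitf rose (0.69, adjusted p 0.00446). Of 30 autophagy genes, all tested, 3 rose (10%) and 6 fell (20%, near the share of all genes), with a median of 0.06. Wipi1, which acts early in autophagosome formation, stood at 21.7 and 23.2 FPKM at 0 µM at 48.3 to 75.8 FPKM in treated cells and at 17.3 and 49.2 FPKM in A-5 and B-4, and rose by 1.47 (SE 0.18, adjusted p 0.000176, 6 of 6). Bnip3, a receptor that targets mitochondria to autophagy, stood at 65.3 and 64.1 FPKM at 0 µM at 20.2 to 25.5 FPKM in treated cells and at 35.02 and 50.8 FPKM in A-5 and B-4, and fell by 1.51 (SE 0.10, adjusted p 5.71e-06, 6 of 6). Genes of these lists were chosen for naming after their values were seen.

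Promoters were read for the CLEAR-type element that TFEB and its relatives bind, spelled CACGTG in its core and TCACGTGA in full. Each is its own reverse complement, so both strands are searched at once, and the longer form contains the shorter. RefSeq promoters (build GRCm38.p6, 250 bases before to 50 after the start) were found for 134 of the 169 genes. CACGTG was present in 27 of these genes (20.1%), beside 2187 (8.09%) of all 27025 genes with a promoter. TCACGTGA was present in 9 (6.72%), beside 304 of all those genes. By role CACGTG was in 13 of 62 hydrolases, 5 of 23 membrane proteins, 7 of 31 trafficking genes and 2 of 18 sequence matches. Among tested members with a promoter, CACGTG was present for 5 of 29 genes that rose (17.2%), 3 of 12 that fell (25%) and 16 of 58 not called (27.6%). A match is a description of the letters and not a site shown to be bound.

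Windows are shown for the genes of the naming rule with a match whose window of 40 bases to each side of CACGTG ends before the start of transcription, using the match nearest the start, to let the letters be read beside their values. These are Ap1s2, which rose, Gla and Naglu, which fell, and Ctsd, Lamp1, Mcoln1, Igf2r and Ctsl, which were not called. Gnptg, Sorl1 and Gga2 also hold a match, but their windows run past the start and are not shown. Capitals mark 1 match, further matches in a window are left in lower case, and each runs 5′ to 3′ on the gene's strand. The windows are chrX:163908862-163908947 (plus strand) for Ap1s2, chrX:134601154-134601239 (minus) for Gla and chr11:101069981-101070066 (plus) for Naglu. Those of the genes not called are chr7:142387880-142387965 (minus) for Ctsd, chr8:13159060-13159145 (plus) for Lamp1, chr8:3500408-3500493 (plus) for Mcoln1, chr17:12769709-12769794 (minus) for Igf2r and chr13:64370711-64370770 (minus, cut at the promoter's edge) for Ctsl.
Ap1s2: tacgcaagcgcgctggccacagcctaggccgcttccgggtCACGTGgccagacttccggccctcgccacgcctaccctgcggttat
Gla: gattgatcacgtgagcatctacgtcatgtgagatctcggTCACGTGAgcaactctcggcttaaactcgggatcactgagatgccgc
Naglu: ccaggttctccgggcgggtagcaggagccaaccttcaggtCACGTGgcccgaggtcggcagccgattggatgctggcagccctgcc
Ctsd: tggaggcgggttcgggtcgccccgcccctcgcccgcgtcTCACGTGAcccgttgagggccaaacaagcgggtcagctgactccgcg
Lamp1: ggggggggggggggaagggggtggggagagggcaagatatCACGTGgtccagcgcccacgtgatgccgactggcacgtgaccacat
Mcoln1: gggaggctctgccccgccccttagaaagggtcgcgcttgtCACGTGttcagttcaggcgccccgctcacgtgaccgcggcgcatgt
Igf2r: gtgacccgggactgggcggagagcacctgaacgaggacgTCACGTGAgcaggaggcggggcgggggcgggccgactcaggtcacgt
Ctsl: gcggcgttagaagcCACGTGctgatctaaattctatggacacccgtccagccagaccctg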

How the data were processed

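The deposited table gives raw counts per gene and FPKM for 10 RNA libraries (counts and FPKM made by the authors; HISAT2 2.0.4 and GATK 3.2-2 are named in the submitters' processing notes; genome build and counting program are not given in the sources used here). The table's columns holding the authors' own comparisons of single libraries were not used. Members and lists were chosen with earlier results of these data known. Counts of all genes were filtered with filterByExpr, scaled by TMM and fitted with edgeR 4.0.16 (R 4.3.3) quasi-likelihood models, with Benjamini-Hochberg adjustment over all genes tested. Lists were called at an adjusted p of 0.05, with or without a log2 fold change beyond 1. DESeq2 1.42.0, limma 3.58.1, other filters, scalings and controls, and leaving out each library were alternatives. Sums and ranges used the deposited FPKM (python 3.11.15). Named genes were 20 chosen by function, the largest rises and falls of each role (up to 4, at a mean CPM of 1 or more) and its 3 most abundant by FPKM, 42 in all, of which 2 are not reported here. Positions came from GENCODE M21, which held all 169 genes, and promoters from RefSeq.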

Additional observations from a re-analysis of the deposited data

Results flagged for a closer look

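Of 50 values examined over the 6 treated libraries, 3 had 1 library far from the others, and chance alone does this in about 1 in 20. Acp5 had 0.037 FPKM at 200 µM on day 10 and 0 in the other 5. Npc1 had 41.548 FPKM at 100 µM on day 10, with the next library at 26.869. Gga2 had 6.407 FPKM at 100 µM on day 5, with the next at 7.115.

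Untreated B-4, which carries no dose or time, lay above all dosed libraries in several sums. All lysosome genes summed to 6769.0 FPKM there (highest dosed library 5962.0), and those without the top 5 to 3547.52 FPKM (3428.38). Hydrolases summed to 3553.9 FPKM (2859.32), trafficking genes to 815.54 FPKM (806.26) and cathepsins to 1317.52 FPKM (1034.71). Lysosome genes took 2.0523% of its counts (1.7626%).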

How the results depend on the processing

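Over all alternatives, single genes kept direction and side of the threshold in 766 comparisons with the reported value, lost the call in 76, gained it in 27 and turned sign in 28. The cause of these changes was not tested. Mfsd8 kept its call in all 22 alternatives. The 40 members not tested had too few counts for the filter, and 15 of them had none in any library. Whether depth or absence of expression lies behind this was not tested. Values of genes with few counts are limited by counting error.

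For treated against 0 µM, values are counts of members beyond log2 1 (higher, lower), at adjusted p alone (higher, lower), and the median. Untreated in place of 0 µM gave 5 and 1, 8 and 10, and -0.0406. Beside these stood 6.73% and 2.87% of all genes beyond log2 1, and 9.9% and 10.1% at adjusted p. This control turned Psap (-0.5322), Hexa (-0.681), Ctsd (-0.808), Galns (0.2653), Cd68 (0.2478), Lamp1 (-0.7594), Litaf (0.3289), Npc2 (-0.1654), Cltc (0.0741) and Gnptg (-0.2348). Untreated added to 0 µM gave 8 and 0, 20 and 10, and 0.0235. Of all genes, 8.41% and 2.96% were called beyond log2 1 there, and 13.8% and 13.2% at adjusted p. It turned Psap (-0.2071), Hexa (-0.193), Ctsd (-0.3683) and Lamp1 (-0.3321). A test against a fold change of 2 (glmTreat) gave 7 and 0 beyond the fold, and its share over all genes was not computed. Limma on log2(FPKM + 1) also gave 7 and 0 beyond log2 1, beside 3.13% and 3.64% of all genes. Its median was 0.0578, with M6pr at -0.0014. With log2(FPKM + 0.1) the median was 0.0629 and M6pr -0.0015. Library totals gave a median of 0.0589 and M6pr at -0.0096. A minimum of 10 counts in every library gave 1 lower beyond log2 1 (beside 5.55% of all genes), a median of 0.1637 and Mcoln1 at 0.0463.

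Alternatives by depth and by Ensembl genes were chosen after seeing the data. Libraries above 40000000 counts gave 22 and 10 at adjusted p. Those below gave 4 and 1 beyond log2 1, 6 and 3 at adjusted p, Lipa at 0.0815 and Mcoln1 at 0.0447. Ensembl genes alone gave a median of 0.1537 and Mcoln1 at 0.0349.

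For the difference between days in the treatment effect, DESeq2 called 2 higher, beside 0.298% of all genes. A filter of at least 1 count in total also called 2 higher, beside 0.294%, and library totals gave a median of 0.0448. For day 10 against day 5, DESeq2 called 24 higher, beside 4.31% of all genes. Library totals called 1 lower (median 0.0321), beside 3.2%, and dose as a factor called 1 lower, beside 1.36%. A filter of at least 1 count in total called 1 lower beyond log2 1, beside 0.278% of all genes. At adjusted p it called 19 higher and 2 lower, beside 2.71% and 1.62%. For the dose trend, library totals gave a median of -0.0266, and at least 1 count in total called 1 higher (Sorcs2), beside 0.189% of all genes.

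Leaving out each library in turn, treated against 0 µM ranged from 8 to 19 higher and 2 to 4 lower beyond log2 1, 16 to 41 higher and 11 to 19 lower at adjusted p, with medians of 0.0671 to 0.2096. Where 1 library at 0 µM remained, it was assumed to vary like the treated ones. The difference between days ranged from 0 to 1 higher and 0 to 0 lower, with medians of 0.1025 to 0.1891. Day 10 against day 5 ranged from 1 to 4 higher and 0 to 1 lower beyond log2 1, 1 to 12 higher and 0 to 2 lower at adjusted p, with medians of 0.1353 to 0.1926. The dose trend stayed at 0 calls by edgeR, with medians of -0.1171 to -0.0189. Values that turned ranged from -0.2453 to 0.1402 for Lipa, -0.5401 to 0.0985 for Igf2r, -0.0363 to 0.127 for M6pr, -0.0391 to 0.0429 for Mcoln1 (0.0328 without 150 µM on day 5), -0.0011 to 0.3646 for Psap and -0.0831 to 0.3876 for Scarb2.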
